A study of Mus musculus with 3 samples.

Results

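The genes described here are 10 members of the heat program of brown fat: the uncoupling protein genes Ucp1, Ucp2 and Ucp3, the coactivator genes Ppargc1a and Ppargc1b, the transcription factor gene Prdm16, and Cidea, Dio2, Cox7a1 and Adrb3. They were chosen by name, 10 of 21887 protein-coding gene records. For each gene, every region of enriched DNA methylation in the gene record or within 5000 bp on either side was taken, which gave 203 of the 332157 peaks in the 3 libraries. The assay was MeDIP-seq: an antibody pulls down methylated DNA fragments, these are sequenced, and enriched stretches are called as peaks. The tissue was epididymal fat, a white depot, from male C57BL/6 mice aged 16 weeks. From the age of 6 weeks they had eaten, over 10 weeks, a normal diet (ND, about 10% of energy from fat) or a high-fat diet (HFD, about 60%), and a last group (FAD) combined the high-fat diet with drinking water that held 20 μg/mL of folic acid. All 3 groups were otherwise alike in strain, sex and age, and no transgene or deletion is named for them. Each diet had 1 library; the sources used here do not say whether mice were pooled for it.

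In brown and beige fat, cold or catecholamines act through the beta-3 adrenergic receptor (Adrb3) and cAMP to switch on Ucp1, whose protein lets protons leak back into the mitochondrial matrix so that fuel oxidation gives heat. Prdm16 and the coactivators PGC-1alpha (Ppargc1a) and PGC-1beta (Ppargc1b) help set up this program, while Dio2 makes active thyroid hormone inside the cell, Cidea coats lipid droplets and Cox7a1 belongs to cytochrome c oxidase. White fat of the epididymal depot normally keeps most of these genes at low activity. Methylation of CG dinucleotides in a promoter commonly goes with a silent gene, whereas methylation along a gene body does not.

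No start site that could be examined carried a peak. Promoter windows, from 250 bp before to 50 bp after the start, were matched in RefSeq (GRCm38.p6, the assembly of mm10) for 7 of the 10 genes; Adrb3, Cidea and Ppargc1b were not matched. The 4 printed below span the range from few CG dinucleotides to many, and include the genes whose peaks came closest to a start or differed between the diets. Each runs 5′ to 3′ on the coding strand, and capitals mark CG, the dinucleotide that is methylated in mammals.
Ucp1, chr8:83290098-83290397, plus strand: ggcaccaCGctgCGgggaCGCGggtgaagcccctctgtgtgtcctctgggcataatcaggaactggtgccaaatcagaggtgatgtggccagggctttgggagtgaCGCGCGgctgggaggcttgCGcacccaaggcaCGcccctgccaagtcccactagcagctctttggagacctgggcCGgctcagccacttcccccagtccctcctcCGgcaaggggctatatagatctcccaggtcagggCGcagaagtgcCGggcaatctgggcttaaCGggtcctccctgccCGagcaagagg
Ucp2, chr7:100493108-100493407, plus strand: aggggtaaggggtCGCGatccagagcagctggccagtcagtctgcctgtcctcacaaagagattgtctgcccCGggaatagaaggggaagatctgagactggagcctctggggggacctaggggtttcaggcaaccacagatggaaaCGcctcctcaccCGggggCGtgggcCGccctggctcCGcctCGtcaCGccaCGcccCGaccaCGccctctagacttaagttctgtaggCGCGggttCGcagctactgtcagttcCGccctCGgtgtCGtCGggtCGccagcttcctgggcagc
Dio2, chr12:90738989-90739288, minus strand: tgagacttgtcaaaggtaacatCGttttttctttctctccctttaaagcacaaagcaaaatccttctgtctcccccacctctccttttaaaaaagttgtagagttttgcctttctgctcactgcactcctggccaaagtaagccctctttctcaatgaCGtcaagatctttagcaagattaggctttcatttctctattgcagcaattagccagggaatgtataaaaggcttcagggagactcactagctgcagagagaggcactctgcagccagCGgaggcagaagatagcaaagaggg
Cox7a1, chr7:30183921-30184220, plus strand: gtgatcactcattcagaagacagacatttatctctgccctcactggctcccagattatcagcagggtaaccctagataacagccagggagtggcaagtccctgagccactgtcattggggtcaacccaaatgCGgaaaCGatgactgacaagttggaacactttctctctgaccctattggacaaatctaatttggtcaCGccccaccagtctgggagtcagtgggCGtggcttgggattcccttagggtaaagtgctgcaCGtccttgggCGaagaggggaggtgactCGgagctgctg
The CG number was 15 for Ucp1, 21 for Ucp2, 3 for Dio2 and 7 for Cox7a1, and it was 24 for Prdm16 and 5 each for Ucp3 and Ppargc1a. The median over 21263 promoter windows of protein-coding genes was 13. No peak of any library overlapped one of the 7 windows, and among all windows a peak was also rare, at 2.53% in ND, 3.37% in HFD and 2.11% in FAD. Windows with 5 to 9 CG, the class of Ucp3, Ppargc1a and Cox7a1, held a peak most often, in 6.55% of 3161 windows in ND, 9.05% in HFD and 5.31% in FAD. Windows with 20 or more, the class of Ucp2 and Prdm16, held 1 in 0.785%, 0.942% and 0.759% of 7641. The class of Dio2, 2 to 4 CG, held a peak in 2.43%, 3.87% and 1.66% of 3619 windows. That of Ucp1, 10 to 19, held a peak in 3.77%, 4.41% and 3.48% of 4426. Most promoters of these classes were thus empty, as the 7 were. A window without a peak is not thereby shown to be unmethylated.

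**Figure D1:**
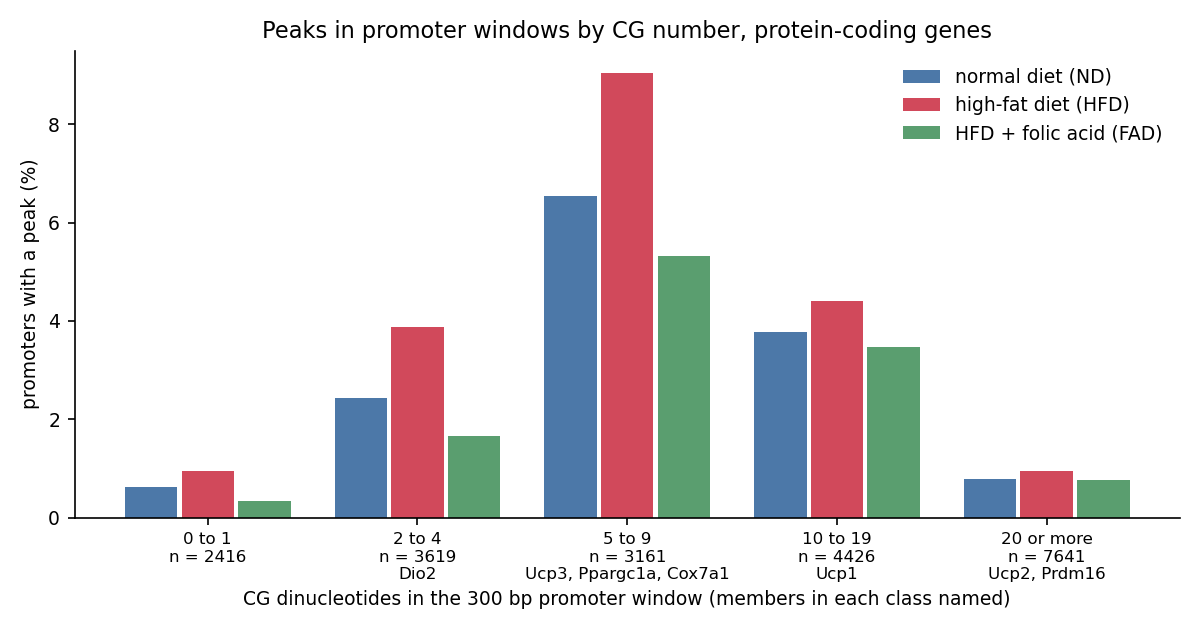
Share of 300 bp promoter windows of protein-coding genes that held a peak (vertical axis, %), by number of CG dinucleotides in the window (horizontal axis), with bars for the 3 libraries and the 7 matched thermogenic genes named under their class. Peaks were most frequent at 5 to 9 CG and rare at 0 to 1 and at 20 or more, and none of the 7 named windows held a peak.

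The cAMP response element TGACGTCA, the site bound by CREB, was looked for on both strands, since it holds a CG. It occurred in 2.23% of all windows and among the 7 in Dio2 alone, where it starts at base 156 of the printed sequence, 95 bp before the start site. Its shorter form TGACG, which also lies inside the full element, was in 23.6% of all windows and in those of Ucp1, Ucp2, Ucp3, Ppargc1a and Dio2. A match of letters describes these windows and does not show a bound site. The nearest peak to the Dio2 start lay 730 bp away in HFD, 27871 bp away in ND and 27870 bp away in FAD.

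Over the whole spans, HFD had peaks at all 10 genes (77.9% of all protein-coding genes), ND at 7 (71.7%) and FAD at 6 (69.1%). The 58 ND peaks, 92 HFD peaks and 53 FAD peaks stand beside whole lists of 101532, 135124 and 95501 peaks. The HFD total was thus 1.59 times that of ND at these genes and 1.33 times over the whole list. Most of the extra HFD peaks lay at 2 genes, with 16 more than in ND at Prdm16 and 12 more at Ppargc1a. No other gene had more than 2 extra, and Cidea had 1 fewer. Ucp2, Dio2 and Cox7a1 had peaks in HFD only, 3 of 10 genes, where 5.16% of all protein-coding genes did. Those 3 had a peak in HFD and none in ND (8.23% of all genes), and together with Ucp1 they made 4 with a peak in HFD and none in FAD (10.5%). Ucp1 was the gene with peaks in ND and HFD and none in FAD (5.35% of all genes; 6.76% had a peak in ND and none in FAD). The remaining 6 had peaks in all 3 libraries (64.3%). No member had a peak in ND or FAD and none in HFD (1.97% and 1.64% of all genes), or in FAD and none in ND (4.16%). Peaks outnumbered those of ND in HFD at 7 genes (46.5% of all genes) and those of FAD at 9 (50.9%), all but Ucp3; FAD outnumbered HFD at none (6.86%). With 1 library per diet none of these differences has a replicate check, and a missing peak means that no stretch passed the peak caller's threshold, a result that read depth can also set.

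The total over the 10 genes was nearly equal in the 3 libraries once the lists had the same length. Each peak carries a score from the authors' peak caller, at least 50 in every list, whose scale is not stated; it serves here to rank peaks within a list. When each list was cut to its 95501 highest-scoring peaks, which removed HFD peaks scoring under 73.24, the 10 genes held 52 peaks in ND, 52 in HFD and 53 in FAD. That length is the whole FAD list, so the cut removed no FAD peak and FAD counts could not change. With the 50% highest-scoring peaks of each list, which leaves the lists unequal in length, they held 22, 37 and 21. With equal lists Ppargc1a had 15, 15 and 11, and Prdm16 23, 21 and 28. HFD then exceeded ND at 4 genes (25.0% of all genes) and FAD at 5 (26.9%). FAD exceeded HFD at 3 (20.3%), namely Prdm16, Ppargc1b with 9 against 7 and Ucp3 with 2 against 1. ND exceeded HFD at 2 (22.0%), Prdm16 and Cidea, the latter with 4 against 2. Ucp2 and Cox7a1 kept their single HFD peak (span peaks in HFD only: 2.79% of all genes) and Dio2 lost both of its peaks. Ucp1 kept its 2 peaks in ND and 2 in HFD, while its FAD count of 0 was fixed in advance.

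**Figure D2:**
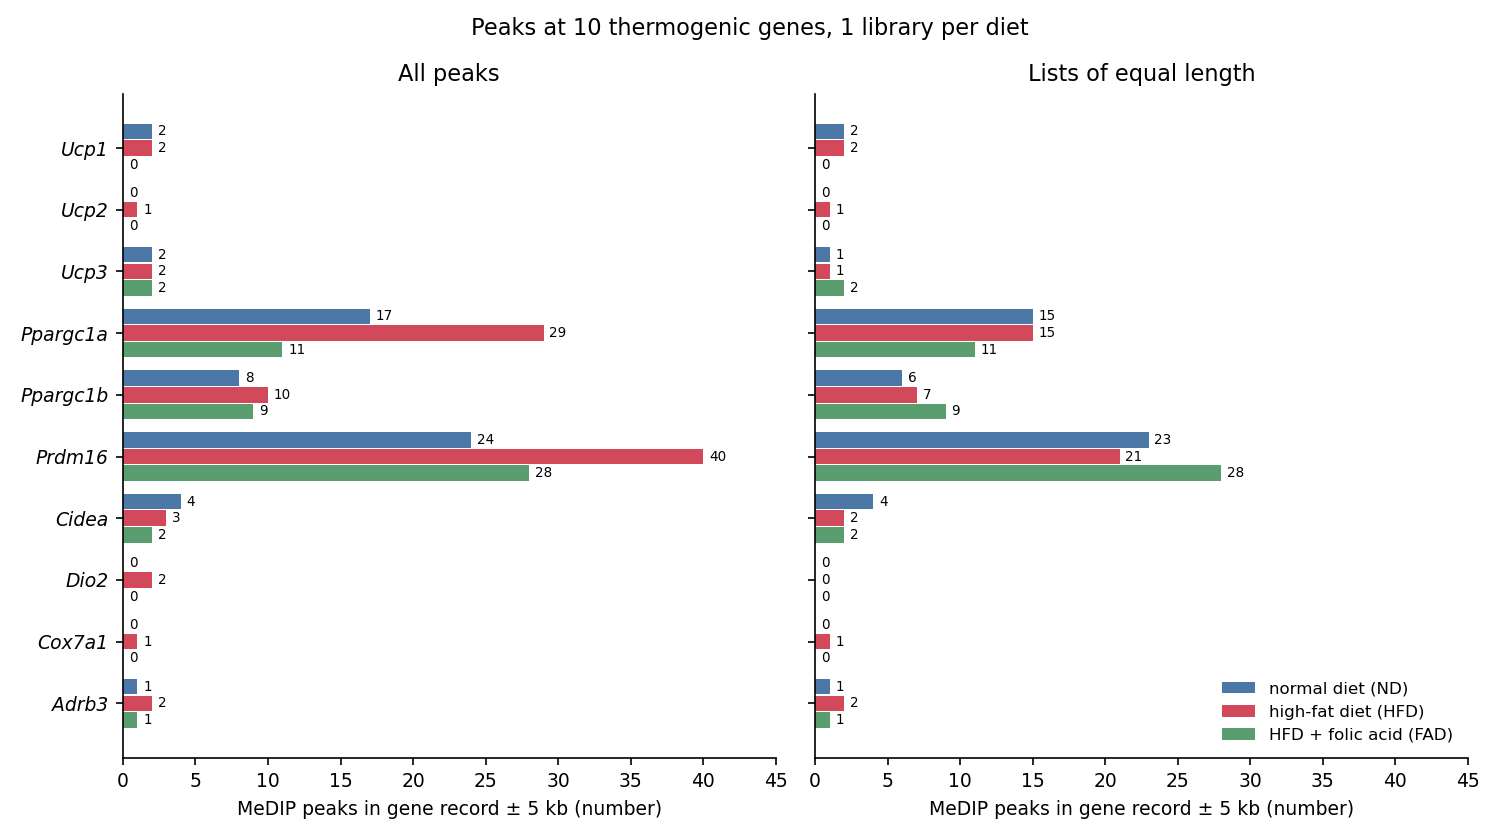
Number of peaks in each gene record and 5 kb on either side (horizontal axis) for the 10 thermogenic genes (vertical axis), bars coloured by library, with all peaks on the left and lists of equal length on the right. The excess of HFD at Prdm16 (40 peaks against 24 in ND and 28 in FAD) is absent with equal lists (21 against 23 and 28). Ppargc1a goes from 29 against 17 and 11 to 15 against 15 and 11, still above FAD. The FAD list sets the equal length and is not cut, so its bars, with none at Ucp1, are the same on both sides.

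Ucp1, the uncoupling protein gene that defines thermogenic fat, had no peak inside its 8.11 kb record in any library (chromosome 8, 83290348 to 83298456). Its peaks lay on both sides. Upstream, ND had a peak at chr8:83288119-83288468 with a score of 121.19, which ended 1880 bp before the start, and HFD had an overlapping peak at chr8:83288178-83288552 with a score of 115.71. Downstream, beyond the end of the gene, ND had a peak with a score of 59.42 at chr8:83302368-83302832, and HFD an overlapping peak with a score of 123.02 at chr8:83302284-83302786. FAD had neither; its nearest peaks lay 14787 bp from the upstream ND peak and 18542 bp from the downstream one. Mouse Ucp1 is known to have an enhancer a few kilobases upstream of the start site; whether the upstream peak covers it was not examined. The upstream peaks ranked at percentile 60.5 of the ND list and 57.9 of the HFD list, so both were of middling score.

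Ucp2 and Ucp3, which encode carriers related to UCP1, are neighbours on chromosome 7. Ucp3 (100472991 to 100486432), expressed mainly in muscle and brown fat, had the same pair of regions in all 3 libraries. The first, about 7 kb after the start, scored 50.69 in ND, 58.75 in HFD and 96.31 in FAD, and it was the one place among the short genes where FAD had the highest value of the 3. The second scored 61.68, 78.65 and 62.97. These were low scores: lists of equal length kept 2 Ucp3 peaks in FAD and 1 each in ND and HFD, and the 50% highest-scoring peaks of each list kept 0 in all 3. Ucp2 (100493337 to 100499629), which is expressed in many tissues, had a single peak, in HFD, at chr7:100497043-100497359 inside its record, with a score of 100.59. The nearest ND and FAD peaks were 13063 and 13092 bp away, and both were the second Ucp3 region. The Ucp2 peak spanned 317 bp, where the narrowest 10% of HFD peaks ended at 367 bp.

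Adrb3, the receptor through which catecholamines reach the adipocyte (chromosome 8, 27225776 to 27230845), had a region in its record in all 3 libraries, with scores of 62.91 in ND, 93.91 in HFD and 61.73 in FAD. HFD had a further peak 1387 bp outside the record, at chr8:27232232-27232525, with a score of 100.59. It had no overlapping peak in ND or FAD, but the peaks of the shared region lay 2122 and 2195 bp away. It spanned 294 bp, again inside the narrowest 10%. All of these peaks also lie in the record of the noncoding RNA gene Gm45470, so they cannot be assigned to Adrb3 alone.

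Dio2, the gene of type 2 deiodinase (chromosome 12, 90724552 to 90739038), had 2 weak HFD peaks and nothing in ND or FAD. The peak near the start, at chr12:90737960-90738308, scored 68.90 and overlaps the noncoding gene Gm26512; the other, at chr12:90724547-90725055 across the 3′ end of the record, scored 50.72. These ranked at percentiles 25.2 and 1.11 of the HFD list. Cox7a1 (chromosome 7, 30184171 to 30186030), a cytochrome oxidase subunit gene of muscle and brown fat, had an HFD peak at chr7:30183165-30183861 with a score of 75.21, which ended 310 bp before the start. In all 3 libraries a further peak lay just outside the span, 5470 bp from the record in ND, 5452 bp in HFD and 5494 bp in FAD, with scores of 88.42, 112.86 and 112.30. A wider span would therefore have given Cox7a1 a peak in every library.

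Cidea, the gene of a lipid droplet protein found in brown fat of mice (chromosome 18, 67343564 to 67367794), was the member with more peaks in ND than in HFD (8.87% of all genes), with 4 in ND, 3 in HFD and 2 in FAD. A region in the record scored 150.79 in ND, 329.33 in HFD and 169.54 in FAD, and a region 284 to 354 bp beyond the record scored 202.52, 146.24 and 152.32. Another region, about 3.3 kb beyond the record, scored 91.40 in ND and 71.78 in HFD and had no FAD peak. The ND peak at chr18:67351287-67351578 scored 84.73, spanned 292 bp and had its nearest HFD and FAD peaks 10220 and 10277 bp away. One more HFD peak, with a score of 91.92, lay 5049 bp from the record and so fell just outside the span.

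**Figure D3:**
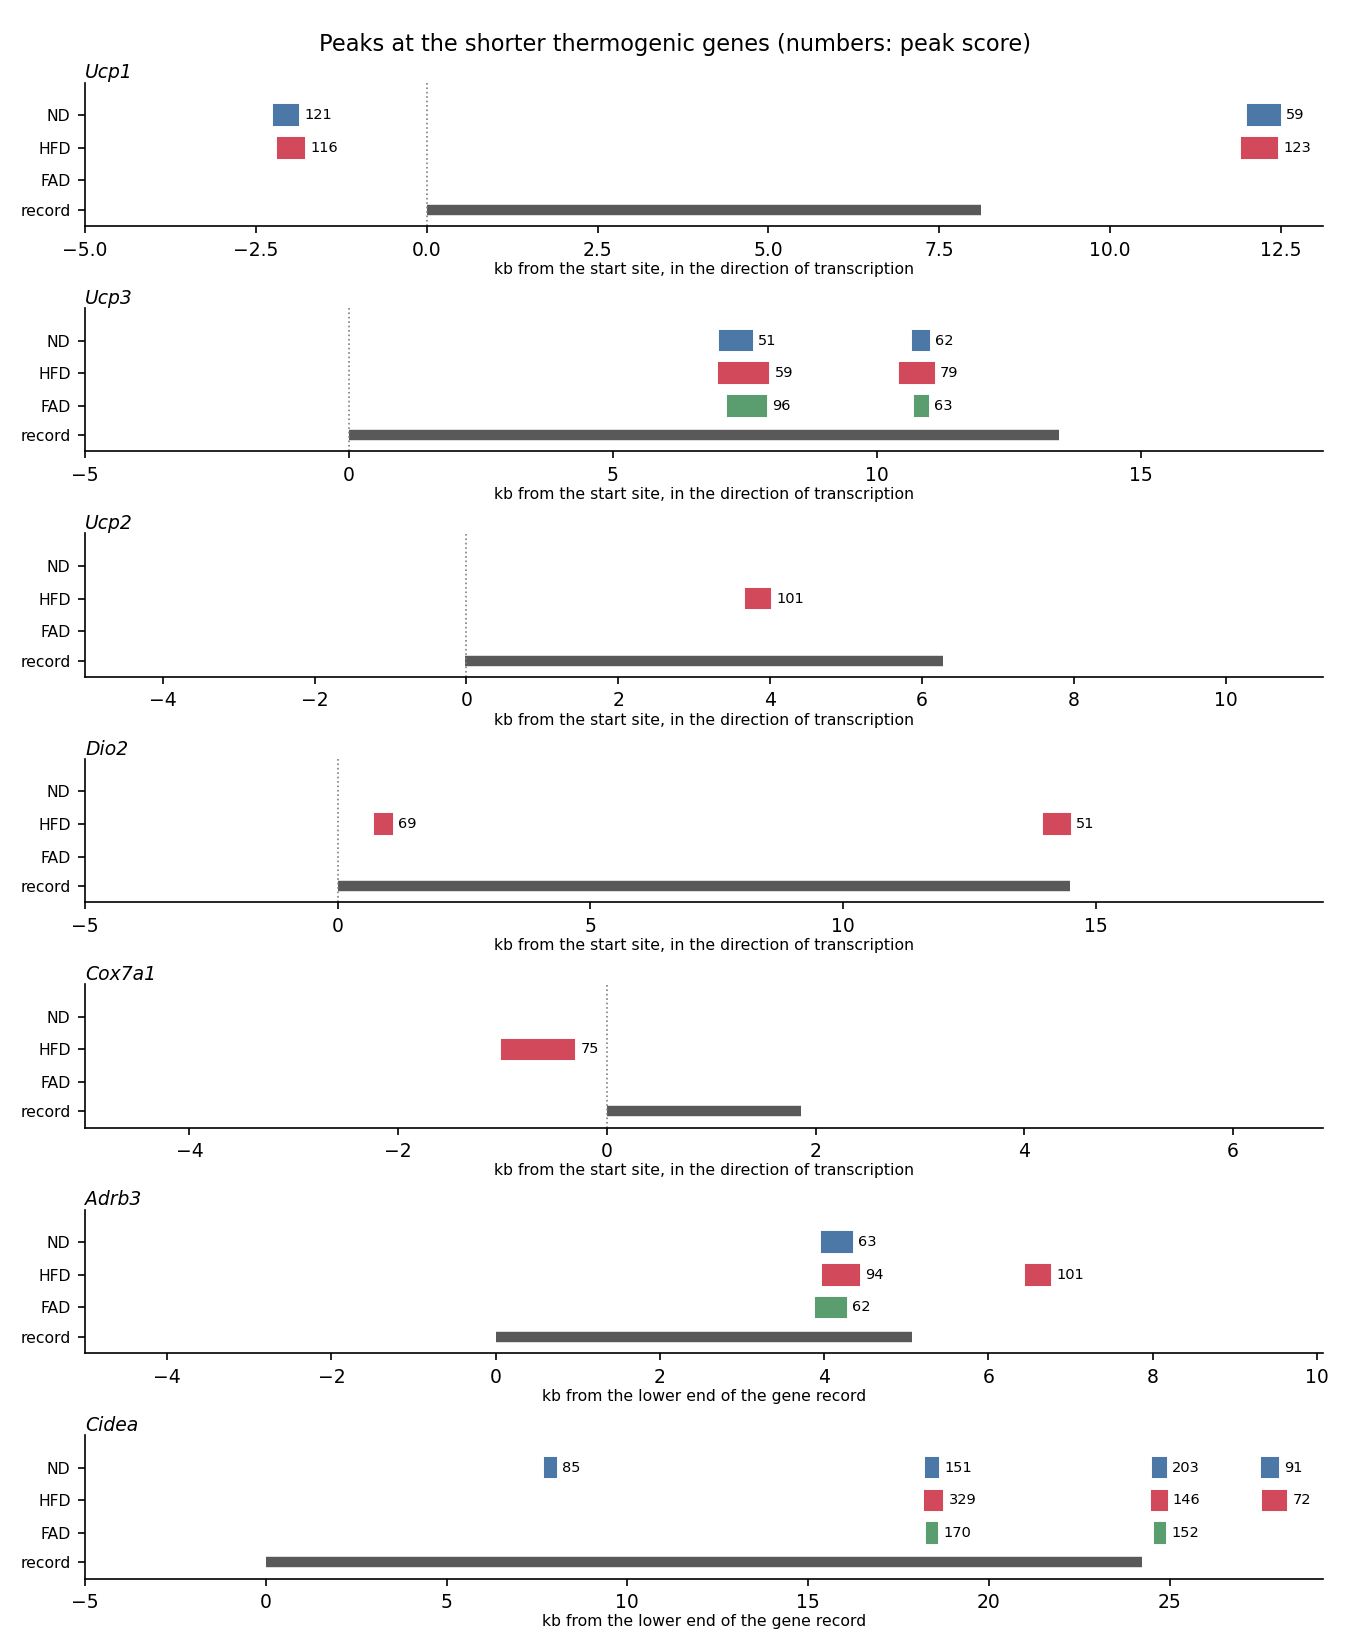
Positions of peaks (coloured bars, with the peak score beside each) at the 7 shorter thermogenic genes, in rows for ND, HFD and FAD above the gene record (grey); the horizontal axis is distance in kb from the start site in the direction of transcription, or from the lower end of the record for Adrb3 and Cidea. The Ucp1 peaks of ND (121.19 and 59.42) and HFD (115.71 and 123.02) flank the gene with none in FAD, and Ucp2, Dio2 and Cox7a1 have bars in HFD only.

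The transcriptional regulators held most of the peaks. Prdm16, the zinc finger gene that favours brown over muscle and white fates (chromosome 4, 154316122 to 154637360), had 24 peaks in ND, 40 in HFD and 28 in FAD. Per 100 kb of span that is 7.25, 12.1 and 8.45, above the 4.57, 6.26 and 4.19 summed over all protein-coding spans. Its 47 regions all lay downstream of the start. Of these, 17 had a peak in all 3 libraries (40.3% of all regions in the genome) and 13 in HFD only (23.5%). A further 3 were in ND only (7.88%) and 4 in FAD only (6.57%). The strongest in ND and HFD, about 295 kb into the gene at chr4:154340522-154342271, scored 274.15 in ND, 434.36 in HFD and 140.64 in FAD. FAD had 2 separate peaks in that region, with scores of 104.29 and 140.64, where ND and HFD had 1 long peak each. The strongest in FAD, at chr4:154350264-154351181, scored 182.64 there, 140.94 in ND and 166.28 in HFD. The nearest HFD peak to the start lay 4178 bp inside and scored 58.81, and the nearest ND and FAD peaks were 11081 and 17767 bp away. The first 100 kb held 6 peaks in ND, 14 in HFD and 8 in FAD, the next 100 kb held 9, 12 and 11, and the stretch from 200 to 300 kb held 6, 10 and 7. Lists of equal length drop HFD peaks under 73.24. In the first 100 kb these scored 52.19, 52.30, 58.81, 62.34, 66.56, 69.53 and 70.59. They also drop an ND peak of 52.84 there, under the ND limit of 54.82, and no FAD peak. Several noncoding genes lie within Prdm16, and peaks were not divided between them.

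Ppargc1a, the gene of PGC-1alpha (chromosome 5, 51454249 to 52115853), has a record of 662 kb, of which 548 kb lie upstream of the matched start; its listed transcripts include predicted ones. It had 17 peaks in ND, 29 in HFD and 11 in FAD, or 2.53, 4.32 and 1.64 per 100 kb, below the values of all spans. Of its 36 regions, 14 were found in HFD only (23.5% of all regions in the genome) and 5 in all 3 libraries (40.3%). Those 5 were among the 27 regions in the 548 kb upstream of the matched start. Of the 27, 20 had a peak in HFD, 15 in ND and 9 in FAD, and 8 were in HFD only. In the 113 kb downstream of the matched start, 9 regions were found, 8 with a peak in HFD, 2 in ND and 2 in FAD. Of the 9, 6 were in HFD only (23.5% of all regions). The HFD scores there were 50.43, 52.46, 54.40, 54.94, 58.27, 66.28, 92.33 and 105.70. With lists of equal length, which drop HFD peaks under 73.24, only the last 2 stay. The ND peaks (94.28 and 75.48) stay as well, and so do the FAD peaks (60.01 and 92.05), since this cut removes no FAD peak. The strongest scores were 202.75 in ND, at chr5:51911176-51911464, where HFD scored 59.65 and FAD had no peak, and 265.81 in HFD, at chr5:52021422-52021833, where ND scored 96.06 and FAD 138.66. A region 88 kb upstream of the start scored 234.74 in HFD and 54.12 in ND, with the nearest FAD peak 5495 bp from the HFD peak.

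Ppargc1b, the gene of PGC-1beta (chromosome 18, 61291445 to 61400756), differed little in number, with 8, 10 and 9 peaks, and held the highest scores of the 10 genes. The region starting at chromosome 18 position 61297963 scored 375.67 in ND, 634.61 in HFD and 469.80 in FAD, and these ranked at percentiles 94.4, 99.1 and 97.8 of their lists. It also lies in the noncoding gene Gm46627. The next, starting at 61310490, scored 398.17, 532.94 and 401.28. A region beyond the upper end of the record, 2614 bp from it in HFD, scored 294.05 in HFD and 150.74 in FAD and had its nearest ND peak 10977 bp from the HFD peak. An HFD peak at chr18:61356982-61358057 scored 159.66, the highest among the HFD-only regions of all 10 genes, and the nearest ND and FAD peaks were 13535 and 11940 bp away.

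**Figure D4:**
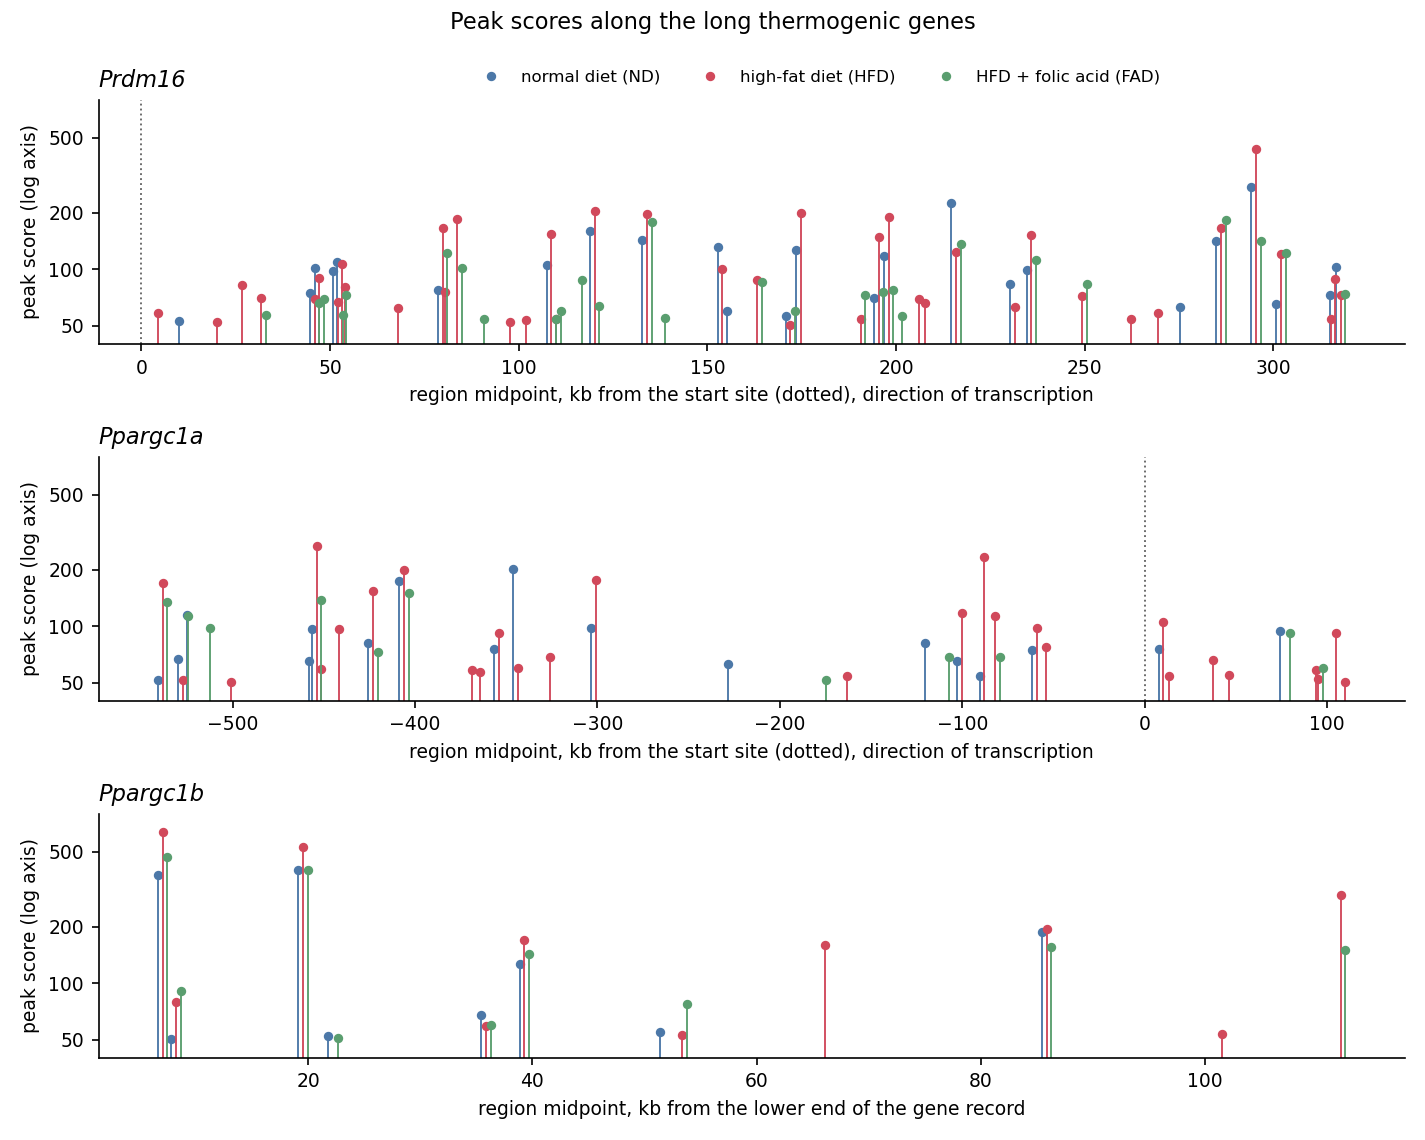
Peak scores (vertical axis, log scale) of regions along Prdm16, Ppargc1a and Ppargc1b, with 1 point per region and library; the horizontal axis is kb from the start site, or from the lower end of the record for Ppargc1b, and libraries are set slightly apart so that points do not hide each other. Peaks of Prdm16 run along the whole gene. Ppargc1a had 27 regions in the 548 kb upstream of the matched start and 9 in the 113 kb downstream. The 2 highest regions of Ppargc1b (634.61 and 532.94 in HFD) are present in all 3 libraries.

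When overlapping peaks were joined, the 10 genes held 109 of the 161677 regions in the genome. Regions with a peak in all 3 libraries numbered 33 (30.3%; 40.3% of all regions) and HFD-only regions 34 (31.2%; 23.5%). A further 14 were in ND and HFD (10.9% of all regions), 10 in HFD and FAD (8.28%), 2 in ND and FAD (2.54%), 9 in ND only (7.88%) and 7 in FAD only (6.57%). In all, 44 regions had a peak in HFD and none in ND (40.4%; 31.8% of all regions), and 11 the reverse (10.1%; 10.4%). FAD lacked a peak at 48 regions that had one in HFD (44.0%; 34.5%), and HFD at 9 that had one in FAD (8.26%; 9.11%). Prdm16 and Ppargc1a held 83 of the 109 regions, so these shares are mostly those of the 2 genes. At the other 8 genes 11 of 26 regions were in all 3 libraries (42.3%) and 7 of 26 in HFD only (26.9%), both closer to the genome shares. With lists of equal length the counts were 17 and 18 for HFD against ND (18.9% and 18.1% of all regions) and 21 and 22 for HFD against FAD (19.7% and 18.4%).

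HFD-only regions were weak at these genes and over the genome. At the 10 genes their scores ran from 50.31 to 159.66 with a median of 58.9, where the median of all 38062 HFD-only regions was 67.66. Of the 34, 31 fell below the median of the HFD list, 100.41 (91.2%; 86.7% of all HFD-only regions). At 24 of them no ND or FAD peak lay within 5000 bp (70.6%; 57.2%). Prdm16 and Ppargc1a held 27 of the 34. Low scores were not particular to HFD-only regions at these genes. The 9 ND-only regions scored from 52.84 to 114.19 and the 7 FAD-only regions from 51.95 to 98.03. Over the genome the scores of those 2 patterns were not summarised. At the 33 regions shared by the 3 libraries, the ND, HFD and FAD medians of the score were 101.96, 152.15 and 112.20, and over all 65103 shared regions 135.08, 164.59 and 120.79. HFD had the highest score at 19 of the 33 (57.6%; 55.8% of all shared regions), ND at 8 (24.2%; 28.6%) and FAD at 6 (18.2%; 15.6%). Such an order can be read as a difference only if the lists share a score scale. The order of these counts was the same over the genome. For the medians, HFD was highest in both, but FAD was above ND at the 33 regions and below it over the genome. Of the peaks at the 10 genes, 37.9% in ND, 40.2% in HFD and 39.6% in FAD scored above the median of their list. The genes differed in this: median scores at Cidea were 121.1, 146.2 and 160.9, above the list medians of 100.85, 100.41 and 97.08, and those at Ppargc1b were 97.2, 164.5 and 143.6.

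**Figure D5:**
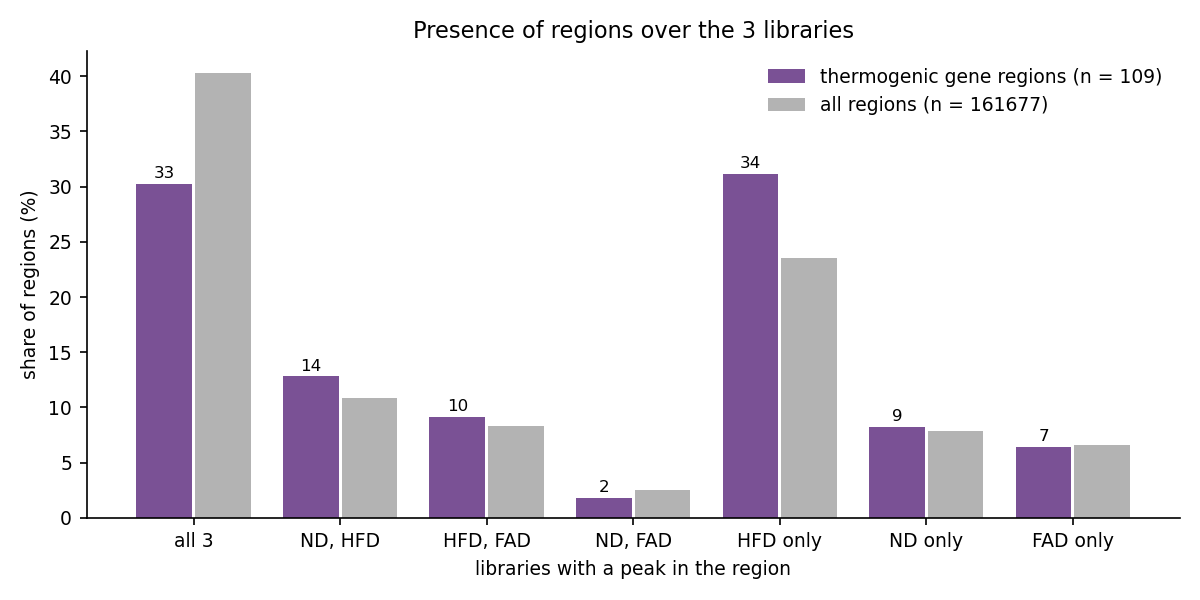
Share of joined regions (vertical axis, %) by the libraries that had a peak there (horizontal axis), for the 109 regions of the thermogenic genes (purple, with their number above each bar) and all 161677 regions (grey). HFD-only regions were 31.2% against 23.5%, and regions in all 3 libraries 30.3% against 40.3%; 83 of the 109 regions belong to Prdm16 and Ppargc1a.

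Other genes of the heat program mostly had peaks in all 3 libraries. Of 66 genes in 5 lists (adrenergic and cAMP signalling, brown and beige transcription factors, their enzymes and markers, hormones, and mitochondrial genes), 49 had a span peak in all 3 libraries (64.3% of all genes) and 5 in none (19.0%). A peak in HFD and none in ND was found at 6 (8.23% of all genes), led by Gatm, an enzyme gene of creatine synthesis (100.98), the transcription factor gene Cebpb (92.33) and Hoxc9, a homeobox gene of white fat (82.15). Of the 6, 5 were among the 15 transcription factor genes (8.23% of all genes). The highest HFD scores at those 5 ran from 62.78 to 92.33, below the HFD list median of 100.41. The reverse held at 3 (1.97% of all genes): Cited1, a beige marker gene (84.73), the cytochrome c gene Cycs (75.50) and the adrenergic receptor gene Adrb1 (56.83). A peak in HFD and none in FAD was found at 4 (10.5%), led by Gabpa, of mitochondrial gene control (92.94), Lhx8 (73.93) and Cpt1b, which brings fatty acids into mitochondria (71.75), and the reverse at Cycs (63.16) and Hoxc10 (56.09; 1.64% of all genes).

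The tissue was read through marker genes in the same way, which shows methylation and not expression. Over all protein-coding genes the ND, HFD and FAD lists marked 71.7%, 77.9% and 69.1%. Of 5 adipocyte markers they marked 3, 4 and 3, and none marked Fabp4. Of 5 leukocyte markers they marked 2, 4 and 2, and of 5 epididymis markers 1, 3 and 0. Their part in the results was not tested. MeDIP-seq of whole fat also averages over cell types, so a change in methylation and a change in the mix of cells cannot be told apart.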

How the data were processed

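MeDIP-seq libraries of epididymal fat, 1 per diet, were compared; groups came from the labels. The authors deposited a peak list for each library; the submitters' processing notes name the build mm10. MACS stands in the names of the peaks. Not given in the sources used here are the caller's version, settings and control, the aligner, read depth and duplicate handling. Column 5 is the deposited peak score; its scale is not stated, so it ranks peaks within a list, and it was at least 50 in each. Peak starts were taken as 0-based and raised by 1, so the positions given here are 1-based. A peak counted when 1 bp lay in the span. Peaks sharing 1 bp across libraries were joined into regions. Gene records and promoter windows came from RefSeq, assembly GRCm38.p6, whose gene table gives no exons. No genome was used, so peak sequences and their CG content were not analysed here. With 1 library per diet no test was made. Members and lists were chosen with earlier results of these data known. All 10 members are named; of the other pathway genes, the 3 highest-scoring in each direction were named. Of 66 listed symbols 66 were found, Gyk through its synonym. On simulated peaks 7000 of 7000 patterns were recovered, and 65661 of 65661 gene counts equalled those of bedtools. Alternatives were spans of 0 or 2000 bp on each side, the 50% highest-scoring peaks, lists of equal length, midpoints, and joining within 500 bp. Python 3.11.15, numpy 2.4.6, pandas 2.3.3, matplotlib 3.10.9 and bedtools 2.31.1 were used.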

Additional observations from a re-analysis of the deposited data

How the results depend on the processing

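The totals over the 10 genes stayed within 1.5 times of the reported values with spans of 0 or 2000 bp on each side, with midpoints and, for regions, with joining within 500 bp. Lists of equal length gave 52 HFD peaks in place of 92. Regions in HFD and not ND then numbered 17, against 18 in ND and not HFD, and those in HFD and not FAD 21, against 22 in FAD and not HFD. With the 50% highest-scoring peaks, ND, HFD and FAD held 22, 37 and 21 peaks, and the same 4 counts of regions were 18, 4, 18 and 2. This cut keeps the HFD list the longest, and no shares over all regions are given for it, so these counts have no genome value beside them. Without flanks, peaks were found in ND at 6 genes, in HFD at 8 and in FAD at 6, and Ucp1 and Cox7a1 had none in any library. In the 50% highest-scoring peaks Cox7a1, Dio2 and Ucp3 had none in any library, Adrb3 had 1 in HFD alone, and Ucp1 had 1 in ND, 2 in HFD and 0 in FAD. Among the other pathway genes, a peak in HFD and none in FAD was found at 2 with equal lists and at 8 with the 50% highest-scoring. Shares over all genes are not given for these pathway counts or for the counts without flanks. Alternatives for single genes, promoter windows and pathway genes were added after the data were seen. No paired analysis was possible because each diet had 1 library. Read depth is unknown, so no limit can be given for methylation where no peak was called.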

Other observations

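Some scores at these genes recur many times in a list. The HFD-only peaks of Ucp2 and Adrb3 carry the same score, 100.59, as do 725 HFD peaks in all (0.537% of the list), and the Dio2 peak near the start shares its score of 68.90 with 810 (0.599%). In ND, 2 Ppargc1a peaks share the score of 75.48 with a total of 1011 peaks (0.996%). Of the peaks at the 10 genes, 10 of 58 in ND, 14 of 92 in HFD and 9 of 53 in FAD were no wider than the limit of the narrowest 10% of their list.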
